A study of Mus musculus with 374 samples.

Results

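The actin cytoskeleton genes of leukocytes are 42 genes whose products hold, assemble, cap, branch, bundle, cut or pull actin filaments or tie them to the plasma membrane. They were chosen by name, and 40 of the 42 were found by gene symbol among the 19829 mouse genes of the count table. Coro1c and Capza1 are not analysed here. Of the 40 genes, 36 had at least 50 unique molecular identifiers (UMIs) over all cells. The other 4 were Vasp with 42 UMIs, Was with 40, Wasf2 with 16 and Wipf1 with 6.

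Actin exists as single molecules and as filaments, and a moving leukocyte builds filaments at its front and takes them apart behind. Thymosins and profilin hold the pool of single molecules, the Arp2/3 complex starts branches on existing filaments, capping proteins stop growth, cofilin and coronins return old filaments to the pool, and myosin II pulls on what remains. Neutrophils are known for fast crawling that depends on this turnover, lymphocytes use it for migration and for contacts between cells, and red cell precursors end with a short-filament actin network on a spectrin lattice.

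All cells came from 1 female C57BL/6 mouse, 10-13 weeks old, with no genetic change or treatment named in the labels. The bone marrow gave 44 B lymphocytes (B cells) sorted as B220+ with low forward scatter (FSC-A), 96 granulocytes sorted as Mac1+ Gr1+, 96 erythroblasts sorted as Ter119+ CD44+ with mid to high FSC-A, and 95 progenitor/stem cells sorted as Lin- Kit+ Sca1+, called LSK cells here. The 43 T lymphocytes (T cells) were sorted as CD3+ with low FSC-A from the thymus of that animal, so tissue and cell type cannot be told apart for them. Each cell was put in a well of 1 plate and its transcripts were counted by CEL-seq2, which tags the 3' end of each molecule with a cell barcode and a UMI, so a count stands for molecules and does not grow with transcript length. Each population filled plate rows of its own, so row and population cannot be told apart. Every population is 1 sample of 1 mouse, there is no replicate check of any difference below, and all intervals are 95% intervals that cover counting error only.

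The wells held 8 to 24033 UMIs on mouse genes, with medians per population between 3028.5 in the B cells and 7959 in the LSK cells. Marker lists of the 5 sorted cell types were each highest in the population of that name. Of the 374 wells, 7 were more like another population than their own, among them 2 of the B cell wells, both nearest the granulocytes. In the granulocyte gate, 13 of the 96 wells held at least 5 UMIs on 5 monocyte markers, and together they held 640 of the 674 monocyte marker UMIs of that gate. Granulocyte markers were at 19464 CPM (the UMIs of a gene scaled to a common total of mouse UMIs) in those 13 wells and at 190582 CPM in the other 83. Granulocyte values below are over all wells, and for some genes also without these 13. Relative to the erythroblasts, the erythroblast markers were at 11.8% in the B cells and 7.46% in the T cells. They were at 6.49% in the granulocytes and 5.38% in the LSK cells. Relative to the granulocytes, the granulocyte markers were at 4.41% in the B cells, 2.41% in the T cells and 1.51% in the LSK cells. Markers of other populations were also counted in the erythroblast wells. Relative to the level in their own population, the granulocyte markers were there at 1.13%, the T cell markers at 0.985%, the B cell markers at 1.27% and the LSK cell markers at 3.83%. Whether these UMIs came from other cells or from the sorted cells themselves was not tested in any population. Actin genes below are set beside these levels.

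The stretch before the transcription start was searched for 5 short motifs in the 36 genes with a RefSeq entry (GRCm38.p6). The search covered the 250 bases upstream on both strands. Actb, Twf2, Coro1b and Lsp1 had no entry and were not searched, so these 36 are not the genes with at least 50 UMIs. The CArG box, the site of serum response factor, which is known to drive actin genes, was present in 3 of the 36 genes (8.33%) and in 1.62% of 27025 genes with an entry. The 3 were Actg1, Arpc4 and Myl6, and in Arpc4 and Myl6 the bases around the match overlap annotated exons. The letters GGAAGTG, a core of sites of the ETS family that includes the factors of blood cells, were present in 11 of the 36 (30.6%) and in 9.77% of all genes. In Arpc2, Wipf1, Tln1, Wdr1, Arpc1a and Myl12b the bases around these matches overlap annotated exons. TATAAA was present in 2 of the 36 (5.56%) against 14.3% of all genes, and CCAAT in 11 (30.6%) against 37.5%. GAGGAAGT, which shares 6 letters with GGAAGTG, was in 0 of the 36 and in 2.79% of all genes. Windows around 5 matches that lie outside annotated exons are printed here because they belong to genes whose levels are compared below, with the motif in capitals and each sequence running 5' to 3' along its gene. The first has the CArG box and the other 4 have GGAAGTG or its reverse complement.
Actg1, chr11:120348546-120348615, reverse strand: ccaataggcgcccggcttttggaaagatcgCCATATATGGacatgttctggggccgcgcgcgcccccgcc
Arpc3, chr5:122391839-122391877, forward strand: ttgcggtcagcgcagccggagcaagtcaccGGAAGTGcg
Arpc4, chr6:113378073-113378112, forward strand: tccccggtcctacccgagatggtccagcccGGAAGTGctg
Lcp1, chr14:75130925-75130991, forward strand: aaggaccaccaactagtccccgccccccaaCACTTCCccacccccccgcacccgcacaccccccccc
Cfl1, chr19:5490398-5490454, forward strand: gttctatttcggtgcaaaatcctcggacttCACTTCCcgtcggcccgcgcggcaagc
Of these genes, Actg1, Arpc4, Lcp1 and Arpc3 were highest in the granulocytes, as were 75.0% of the genes with at least 50 UMIs. For Arpc3 the intervals of the granulocytes and B cells overlapped. Cfl1 was about as high in the T cells as in the granulocytes. Levels of genes with and without a match were not compared. A match of letters is a description and shows no binding.

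The 40 genes together made up 4.48% of all mouse UMIs in the granulocytes (interval 4.42% to 4.54%). The share was 2.54% (2.47% to 2.61%) in the T cells, 1.83% (1.76% to 1.90%) in the B cells, 1.27% (1.25% to 1.30%) in the LSK cells and 0.600% (0.581% to 0.619%) in the erythroblasts. The granulocyte share was thus 7.47 times the erythroblast share (7.22 to 7.73) and 3.52 times that of the LSK cells (3.44 to 3.60). No 2 of the 5 intervals overlapped. The erythroblast share was 0.471 times that of the LSK cells (0.454 to 0.489). Scran size factors move every log2 ratio of erythroblasts over LSK cells by 1.01, so this difference is much smaller on that scaling. Without the 13 granulocyte wells with monocyte markers the granulocyte share was 4.69%. In the T cells it was 2.73% in the wells of 1 plate row and 2.32% in those of the other, both between the shares of the B cells and the granulocytes.

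The median wells had the same order, over the 369 wells with at least 1000 UMIs on mouse genes. In the granulocytes the lowest well was at 3.03%, the median well at 4.73% and the highest at 6.88% (94 wells). The T cell wells ran from 1.61% through a median of 2.54% to 3.65% (42 wells). The B cell wells had the widest relative spread of the mature white cells, with 0.945%, 1.77% and 4.59% (43 wells), and their highest well was nearest the granulocytes. Without it, the highest B cell well was at 4.11%. The LSK cell wells were at 0.815%, 1.29% and 2.65% (95 wells, 1.70% at most without 1 well nearest another population), and the erythroblast wells at 0.204%, 0.579% and 1.14% (95 wells). All 94 granulocyte wells lay above the highest LSK cell well, and 83 of them above the highest T cell well. All 95 erythroblast wells lay below the lowest T cell well, and 88 below the lowest LSK cell well. In molecules per well the order differed: the median well held 176 UMIs of these genes in the granulocytes, 108 in the T cells, 99 in the LSK cells, 47 in the B cells and 35 in the erythroblasts. Per 100 UMIs of the ERCC spike-in RNA they came to 43.3, 25.7, 23.9, 13.7 and 10.4 in that order.

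**Figure D1:**
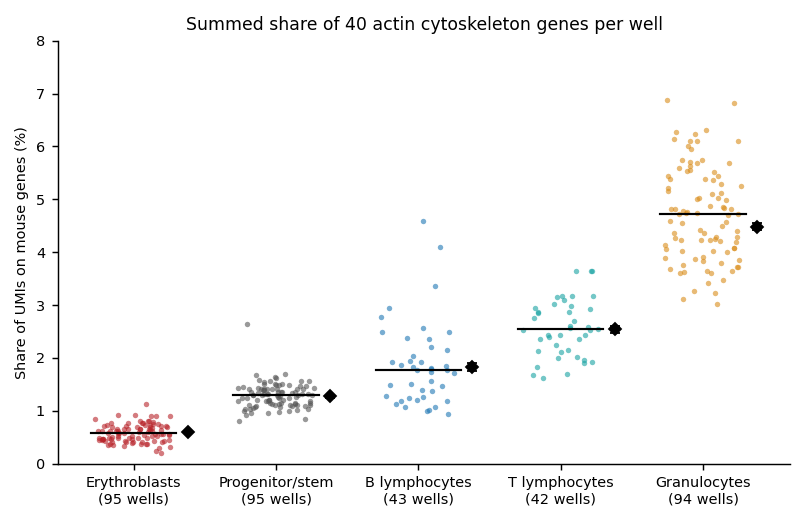
Share of the UMIs on mouse genes that fell on the 40 actin cytoskeleton genes, in percent, for each well with at least 1000 such UMIs (points) in the 5 sorted populations, with the LSK cells named Progenitor/stem; horizontal lines are medians over wells and black diamonds the shares of the summed wells with exact binomial 95% intervals. The granulocyte wells sit between 3.03% and 6.88% and the erythroblast wells between 0.204% and 1.14%, with no overlap between these populations.

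By role, the monomer pool of actins, thymosins, profilin, cyclase-associated protein and twinfilins was the role group with the largest share in every population: 2.50% of UMIs in the granulocytes, 1.29% in the T cells, 0.925% in the B cells, 0.492% in the LSK cells and 0.301% in the erythroblasts. The Arp2/3 complex was 2.74 times higher in the granulocytes than in the LSK cells (2.59 to 2.91) and 1.23 times higher in the T cells (1.12 to 1.35). The bundling and elongation genes differed most between the granulocytes and the erythroblasts, 31.8-fold (25.2 to 40.8). The linkers to membrane and adhesion sites differed least between them, 2.52-fold (2.23 to 2.85), and were about as high in the T cells as in the granulocytes (ratio 1.06, 0.922 to 1.21). The genes of severing and disassembly were also close in these 2 populations, with granulocytes over T cells at 1.12 (1.03 to 1.22). For the Arp2/3, capping and upstream genes the intervals of the B and T cells overlapped. The upstream genes did not differ between granulocytes and B cells beyond counting error (ratio 1.21, 0.935 to 1.59). The erythroblast share over the LSK cell share was 0.730 in the linkers, 0.613 in the monomer pool and 0.553 in severing and disassembly. Scran size factors move every log2 ratio of this comparison by 1.01, so the order of these 2 populations in these groups depends on the scaling.

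**Figure D2:**
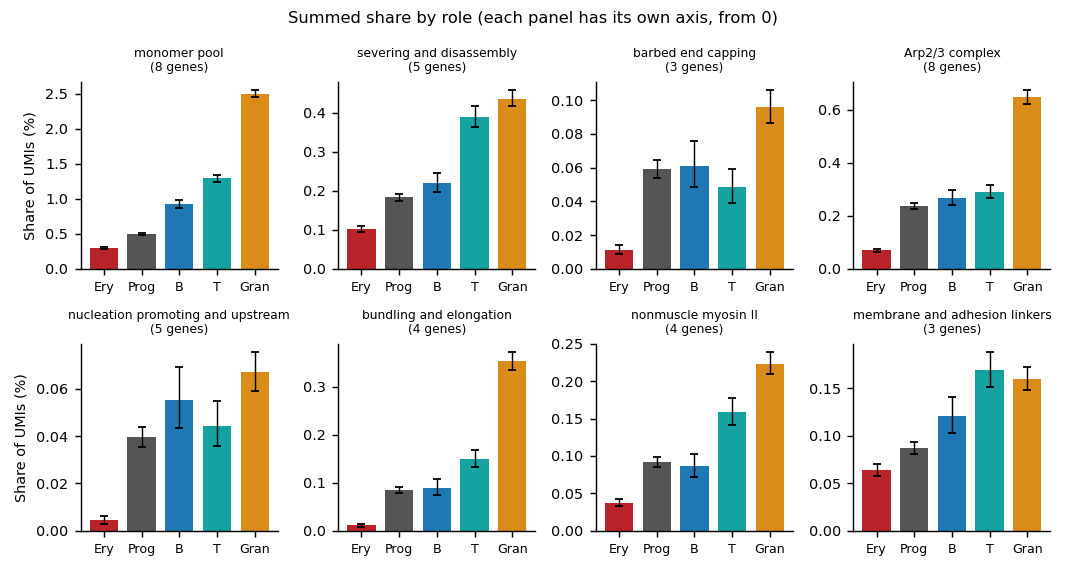
Summed share of UMIs on mouse genes, in percent, for 8 role groups of the actin cytoskeleton genes in erythroblasts (Ery), LSK cells (Prog), B cells (B), T cells (T) and granulocytes (Gran); bars are sums over wells and error bars exact binomial 95% intervals. Granulocytes are highest in 7 groups, of which the upstream genes overlap with the B cells, and level with T cells in the linkers. On these shares erythroblasts are lowest in all 8. Their order against the LSK cells depends on the scaling in the linkers, the monomer pool and the severing genes.

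Among the 36 genes with at least 50 UMIs, 27 (75.0%) were highest in the granulocytes, against 14.1% of the 6317 genes of the table with as many UMIs. The T cells were highest for 6 (Cfl1, Tmsb10, Msn, Ezr, Coro1b and Evl), the B cells for 2 (Capza2 and Dock2), the LSK cells for 1 (Twf1) and the erythroblasts for none of the 36. The granulocyte interval overlapped that of the next population for Coro1a, Myl12a, Capzb, Cap1, Arpc3, Arpc1a, Myl6 and Wdr1. The highest interval also overlapped the next for Cfl1, Ezr, Coro1b, Capza2, Dock2 and Twf1. The erythroblasts were lowest for 34 (94.4%), against 37.5% of all genes. The exceptions were Ezr, lowest in the LSK cells, and Twf1, lowest in the T cells. For Ezr the intervals of the LSK cells and granulocytes overlapped. For Twf1, with 4 UMIs in the T cells, all neighbours in the order overlapped, the LSK cells included. Among the 34, the erythroblast interval overlapped that of the next population for Pfn1, Tln1, Myl12a, Arpc4, Arpc3, Evl, Gsn, Arpc1a, Myl6 and Twf2. With scran size factors, which raise the erythroblasts relative to the LSK cells, 24 of the 36 were lowest in the erythroblasts and 32 highest in the granulocytes. Counted per ERCC UMI, 25 were lowest in the erythroblasts and 22 highest in the granulocytes. The shares of all genes were counted on CPM only, so the counts on these other scalings have no background beside them.

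**Figure D3:**
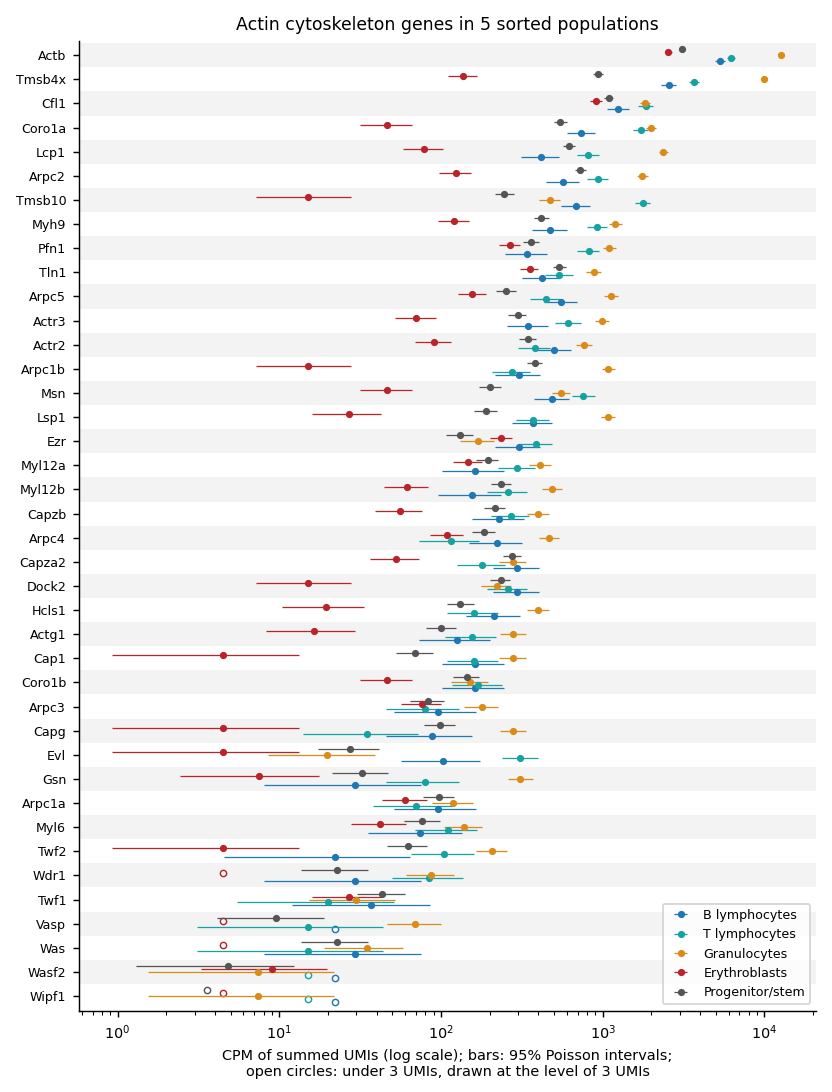
Level of each of the 40 actin cytoskeleton genes, in CPM of the summed UMIs on a log axis, in the 5 sorted populations, ordered by mean level; bars are exact Poisson 95% intervals and open circles mark genes with under 3 UMIs, drawn at the level of 3 UMIs. Granulocytes lie furthest right for 27 of the 36 genes with at least 50 UMIs and erythroblasts furthest left for 34. The exceptions to the latter are Ezr and Twf1, with Twf1 within counting error. For some of the 27 and of the 34 the interval overlaps that of the next population. On scran size factors the erythroblasts are lowest for 24, with no share of all genes counted on that scaling.

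Actb, the main cytoplasmic actin of these cells (ENSMUSG00000029580, chr5:142903115-142906754 in GENCODE M21, GRCm38), had the highest mean level of the 40. It reached 12639 CPM (12295 to 12991) in the granulocytes, 6198 (5858 to 6552) in the T cells, 5309 (4928 to 5711) in the B cells, 3098 (2979 to 3219) in the LSK cells and 2544 (2424 to 2668) in the erythroblasts. Without the wells with monocyte markers the granulocyte level was 13569.9 CPM. Over wells, the lowest, median and highest Actb levels were 4559.6, 13403 and 21283 CPM in the granulocytes and 295, 2471 and 6162 CPM in the erythroblasts. The wells of these populations overlapped, and the erythroblast level was 20.1% of the granulocyte level. The difference between erythroblasts and LSK cells was small, at a log2 ratio of -0.28 (-0.37 to -0.20), and it turned to the opposite direction with scran or TMM size factors, relative to the median gene, or with Gm42418, globin and mitochondrial genes left out of the total. Of the 50-base words in the last 500 bases of the Actb transcripts, 12.8% occur in other genes, so a part of its reads could be placed elsewhere.

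Tmsb4x, thymosin beta 4, which binds single actin molecules and holds them in reserve (ENSMUSG00000049775, chrX:167207093-167209315), separated the populations more widely than Actb. Its level was 9963 CPM (9657 to 10276) in the granulocytes, 3688 (3427 to 3963) in the T cells, 2569.8 (2307 to 2854) in the B cells, 938 (873 to 1006) in the LSK cells and 136 (109.9 to 168) in the erythroblasts. Without the wells with monocyte markers it was 10566 CPM in the granulocytes. The lowest granulocyte well, at 4431 CPM, lay above the highest LSK cell well, at 2496 CPM, and above the highest erythroblast well, at 1064 CPM. The erythroblast level was 1.37% of the granulocyte level, next to 1.13% for the granulocyte markers in the same wells. After every well was thinned to 2000 UMIs, 25.3% of the erythroblast wells held a Tmsb4x UMI (16.9% to 35.2%; 57.3% before thinning), against 89.5% (81.5% to 94.8%) of the LSK cell wells. Actb was still found in 97.9% (92.6% to 99.7%) of the thinned erythroblast wells. None of these populations is known to lack the gene, so no background share of wells is given.

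Tmsb10, thymosin beta 10, is a close relative with the same kind of actin binding (ENSMUSG00000079523, chr6:72957347-72958748), and it had another order. It was highest in the T cells at 1766 CPM (1587 to 1960.5), followed by the B cells at 685 (553 to 839), the granulocytes at 471 (406 to 543), the LSK cells at 247 (214 to 283) and the erythroblasts at 15.0 (7.19 to 27.6). The T cell wells ran from 645 through 1793 to 3459 CPM. In the granulocytes the median well had no Tmsb10 UMI and the highest was at 3667 CPM. Of the 190 granulocyte UMIs, 156 lay in the 13 wells with monocyte markers. Without these wells Tmsb10 was at 109 CPM in the granulocytes, and its log2 ratio over the LSK cells turned from 0.93 (0.64 to 1.22) to -1.18 (-1.75 to -0.65). Of its 50-base words 39.3% occur in other genes, mainly in Gm9844, so its level is uncertain.

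Of the other genes of the monomer pool, Pfn1, profilin, which recharges actin and feeds growing ends, was at 1100.4 CPM in the granulocytes, 818 in the T cells, 359 in the LSK cells, 339 in the B cells and 265 in the erythroblasts, and the intervals of the last 3 overlapped in turn. Actg1, the second cytoplasmic actin, ran from 16.5 CPM in the erythroblasts to 280.0 in the granulocytes, with 49.9% of its 50-base words shared, mainly with the pseudogene Gm12715. Cap1, cyclase-associated protein, which recycles actin from cofilin, gave 3 UMIs in the erythroblasts and 278 CPM in the granulocytes. The twinfilins, which bind actin molecules and filament ends, are described with the pairs of related genes below.

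Cfl1, cofilin, the main filament-severing protein (ENSMUSG00000056201, chr19:5490455-5495201), had the smallest ratio of highest to lowest population among the 12 genes with the highest mean level. It was at 1841 CPM (1658 to 2039) in the T cells, 1817 (1687 to 1953) in the granulocytes, 1244 (1064 to 1447) in the B cells, 1085 (1016 to 1158) in the LSK cells and 909 (838 to 984) in the erythroblasts. The first 2 did not differ beyond counting error, nor did the B cells from the LSK cells, and the erythroblast level was 49.4% of the highest. Coro1a, the coronin of blood cells, which helps to take branched filaments apart (ENSMUSG00000030707, chr7:126699773-126707787), was at 1997 CPM (1862 to 2140.3) in the granulocytes, 1722 (1545 to 1913) in the T cells, 736 (599 to 896) in the B cells and 547 (498 to 600.0) in the LSK cells. In the erythroblasts it was at 46.5 CPM (31.6 to 66.0), 2.33% of the highest level. The granulocytes and T cells overlapped in their intervals, as did the B cells and LSK cells. Coro1a overlaps Bola2 on the opposite strand, and no source used here says if strand entered the counts. Gsn, gelsolin, which cuts and caps filaments when calcium rises, was at 309.8 CPM (258 to 369) in the granulocytes and between 7.50 and 79.8 CPM elsewhere. It was at 359 CPM without the wells with monocyte markers. Wdr1, which speeds severing by cofilin, was at 86.7 CPM in the granulocytes and 84.8 in the T cells, with 2 UMIs in the erythroblasts.

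Of the genes that cap the growing end, Capzb and Capza2 are the subunits of capping protein. Capza2 ran from 179.6 CPM in the T cells to 295 in the B cells, with 52.5 in the erythroblasts, and Capzb from 216 in the LSK cells to 399 in the granulocytes, with 55.5 in the erythroblasts. Capzb was 1.85-fold higher in the granulocytes than in the LSK cells (1.49 to 2.30), and Capza2 was lower in the T cells than in the LSK cells, at a log2 ratio of -0.62 (-1.17 to -0.11). Capg, a calcium-dependent capping protein of the gelsolin family, was at 280.0 CPM (231 to 337) in the granulocytes, 98.2 in the LSK cells, 88.4 in the B cells, 34.9 in the T cells and 3 UMIs in all erythroblast wells.

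The Arp2/3 complex has 7 subunits, for which 8 of the genes were measured because Arpc1a and Arpc1b are alternatives. In CPM all 8 were highest in the granulocytes and lowest in the erythroblasts. For Arpc1a, Arpc3 and Arpc4 the intervals of the erythroblasts and T cells overlapped, as did those of the granulocytes and the next population for Arpc1a and Arpc3, and with scran size factors Arpc1a, Arpc3, Arpc4 and Arpc5 were higher in the erythroblasts than in the LSK cells. Arpc2, a core subunit, was at 1757 CPM (1630.1 to 1891) in the granulocytes, 933 (804 to 1077) in the T cells, 728 (672 to 789) in the LSK cells, 567 (447 to 709) in the B cells and 123 (97.8 to 153) in the erythroblasts. Arpc5 was at 1125, 444, 253, 552 and 156 CPM in the same populations, and Actr3, the Arp3 subunit, at 986, 614, 297, 346 and 70.5 CPM. The subunits differed in their erythroblast level: Arpc1b was at 15.0 CPM, 1.38% of its granulocyte level, Actr2 at 11.7%, Arpc4 at 23.5%, Arpc3 at 42.9% and Arpc1a at 50.4%. Actr3 shares 47.0% of its 50-base words with other genes, mainly with the pseudogene Gm8822, and Arpc4 shares 15.4% with the overlapping Ttll3.

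The genes upstream of branching were low. Was, the gene of the Wiskott-Aldrich syndrome protein, which switches on Arp2/3 in blood cells, gave 19 UMIs in the LSK cells, 14 in the granulocytes, 4 in the B cells, 3 in the T cells and 0 in the 96 erythroblast wells, where the floor of 3 UMIs is 4.50 CPM. Wasf2 and Wipf1, a WAVE subunit and a partner of Was, gave at most 6 and 3 UMIs in any population, so no order is read from them. Dock2, a Rac activator of blood cells, was level from 221 CPM in the granulocytes to 295 in the B cells and at 15.0 (7.19 to 27.6) in the erythroblasts. Hcls1, a cortactin relative that steadies branches, was at 399 CPM in the granulocytes and 214, 159.7 and 132 CPM in the B cells, T cells and LSK cells.

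Lcp1, L-plastin, the actin bundler of white cells (ENSMUSG00000021998, chr14:75131101-75230842), was at 2364 CPM (2217 to 2519) in the granulocytes, 808 (689 to 943) in the T cells, 618 (566 to 674) in the LSK cells, 412 (311 to 535) in the B cells and 78.0 (58.2 to 102) in the erythroblasts. All 5 intervals stood apart, and without the wells with monocyte markers Lcp1 was at 2830.1 CPM in the granulocytes. Granulocyte wells ran from 0 through 2603 to 7009 CPM and LSK cell wells from 132 through 599 to 1379.9 CPM, so that single wells overlapped. Lsp1, an F-actin binding protein of white cells, was at 1078 CPM in the granulocytes, 369 in the T cells, 368 in the B cells, 189 in the LSK cells and 27.0 in the erythroblasts. The B and T cells did not differ in Lsp1 beyond counting error, with the interval of the log2 ratio at -0.53 to 0.55.

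Myh9, the heavy chain of nonmuscle myosin IIA, was at 1195 CPM (1090.3 to 1306) in the granulocytes, 923 (795 to 1066) in the T cells, 471 (363 to 602) in the B cells, 417 (374 to 463) in the LSK cells and 120.0 (95.1 to 149) in the erythroblasts. Its light chains varied less. Myl6 ran from 42.0 to 139 CPM, Myl12a from 147 to 411 and Myl12b from 61.5 to 488, each from erythroblasts to granulocytes. For Myl6 and Myl12a the intervals of all neighbours in the order overlapped.

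Among the linkers, Tln1, talin, which ties integrins to actin (ENSMUSG00000028465, chr4:43531519-43562691), was at 877 CPM (788 to 974) in the granulocytes, 539 (442 to 651) in the T cells, 538 (489 to 590.0) in the LSK cells, 419.7 (318 to 544) in the B cells and 352 (309 to 401) in the erythroblasts. From the T cells down, the intervals of neighbours overlapped. Msn and Ezr, moesin and ezrin, both tie filaments to the plasma membrane, and they went apart. Msn was highest in the T cells at 758 CPM (643 to 889) and lowest in the erythroblasts at 46.5 (31.6 to 66.0). Ezr (ENSMUSG00000052397, chr17:6738041-6782784) was at 389 CPM (308 to 486) in the T cells, 302 (217 to 409.6) in the B cells, 235 (200.1 to 275) in the erythroblasts, 169 (131 to 214) in the granulocytes and 131 (107 to 158) in the LSK cells. Neighbours in that order overlapped, while the erythroblasts and the LSK cells stood apart. Erythroblast wells ran from 0 through 164 to 950.2 CPM of Ezr and LSK cell wells from 0 through 119 to 978. Ezr overlaps Sytl3 on the opposite strand.

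In each comparison, a gene that reached 50 UMIs over both populations was counted as past 2-fold when its CPM differed by over 2-fold, with sums under 3 UMIs set to 3. In the erythroblasts over the LSK cells, none of the 33 genes tested was higher and 21 were lower, beside 14.8% higher and 40.9% lower over all 4792 genes tested. The median log2 ratio was -1.96 over the 33 genes and -0.73 over all genes. The lowest were Arpc1b at a log2 ratio of -4.66 (-5.73 to -3.76), Capg at -4.45 (-6.76 to -2.85) and Tmsb10 at -4.04 (-5.12 to -3.13). Their erythroblast levels, 1.38%, 1.61% and 0.849% of their highest, were about as low as those of the markers of other cells in these wells. The highest were Ezr at 0.85 (0.49 to 1.22), Arpc3 at -0.11 (-0.66 to 0.43) and Cfl1 at -0.26 (-0.41 to -0.11). By role, the genes past 2-fold lower were 3 of 3 tested for capping, 2 of 2 for upstream control and 2 of 2 for bundling. The other genes of upstream control and bundling did not reach 50 UMIs here. Of the Arp2/3 genes 4 of 8 were past 2-fold lower, and of the myosin genes 2 of 4. Relative to the median gene, 20 of the 33 were past 2-fold lower and 1, Ezr, past 2-fold higher, beside 25.1% and 24.8% of all genes. The sign of the smaller ratios depends on the scaling: Ezr alone was above 0 on CPM. With scran size factors 12 of the 33 were, among them Actb, Cfl1, Pfn1 and Tln1, beside 59.5% of all genes. Per ERCC UMI none was past 2-fold higher and 21 were lower, beside 13.6% and 44.3% of all genes.

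In the granulocytes over the LSK cells, 24 of 34 genes were past 2-fold higher and none lower, beside 13.7% higher and 42.7% lower over all 4440 genes tested. Without the 13 wells with monocyte markers, 23 were past 2-fold higher and 1, Tmsb10, past 2-fold lower. The median log2 ratio was 1.47 over the 34 genes and -0.76 over all. The highest were Tmsb4x at 3.41 (3.30 to 3.52), Gsn at 3.26 (2.65 to 3.92) and Lsp1 at 2.51 (2.24 to 2.78). At the other end, Coro1b, a coronin of many tissues, at 0.07 (-0.40 to 0.53), Capza2 at 0.01 (-0.33 to 0.34) and Dock2 at -0.08 (-0.46 to 0.29) had intervals that held 0. Without the wells with monocyte markers these 3 were at -0.44 (-1.04 to 0.13), -0.23 (-0.63 to 0.15) and 0.00 (-0.40 to 0.40). Of the 8 Arp2/3 genes 7 were past 2-fold higher, all except Arpc1a at 0.29 (-0.25 to 0.83). Per ERCC UMI, which compares amounts per well in place of shares, 6 genes were past 2-fold higher and 1 lower, beside 6.67% and 69.4% of all genes. The median was then 0.51 over the 34 genes and -1.72 over all.

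In the B cells over the LSK cells, 6 of 32 genes were past 2-fold higher and 1 lower, beside 6.56% and 27.9% of all 3793 genes tested. The highest were Tmsb10 at 1.47 (1.10 to 1.83), Tmsb4x at 1.45 (1.27 to 1.64) and Msn at 1.27 (0.84 to 1.69), followed by Cap1, Ezr and Arpc5. The lowest were Twf2 at -1.50 (-3.82 to 0.13), which rests on 3 UMIs in the B cells, Myl12b at -0.60 (-1.33 to 0.05) and Lcp1 at -0.58 (-1.01 to -0.18). The median was 0.20, beside -0.44 over all genes. Without the wells nearest another population, 5 genes were past 2-fold higher. Cap1, at 122 CPM (16 UMIs) in the B cells and 68.4 CPM in the LSK cells, was then under 2-fold. Counting per ERCC UMI moves the log2 ratio of every gene here by -1.32. On that scale 0 of the 32 were past 2-fold higher and 20 lower, beside 1.85% and 80.1% of all genes, and the median was -1.12 beside -1.76 over all.

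In the T cells over the LSK cells, 11 of 33 genes were past 2-fold higher and 1 lower, beside 8.35% and 17.8% of all 4060 genes tested. Evl, a protein that speeds filament growth at its tip, was highest at 3.49 (2.78 to 4.25), then Tmsb10 at 2.84 (2.59 to 3.09) and Tmsb4x at 1.98 (1.83 to 2.12). The lowest were Capg at -1.49 (-2.85 to -0.38), Arpc4 at -0.68 (-1.38 to -0.04) and Capza2 at -0.62 (-1.17 to -0.11). The median was 0.60 beside -0.22 over all genes. Per ERCC UMI, which moves every gene by -0.89, it was -0.29 beside -1.11, with 4 of the 33 past 2-fold higher and 5 lower against 3.03% and 55.8% of all genes.

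Between the lymphocytes, 4 of 27 genes were past 2-fold higher in the T than in the B cells and none lower, beside 18.2% and 9.34% of all 1103 genes tested, so the share of higher genes was close to that of all genes. These 4 were Evl at 1.59 (0.73 to 2.54), Tmsb10 at 1.37 (1.03 to 1.71), Pfn1 at 1.27 (0.79 to 1.78) and Coro1a at 1.23 (0.90 to 1.56). Arpc4 at -0.94 (-1.79 to -0.11), Capza2 at -0.71 (-1.40 to -0.03) and Hcls1 at -0.42 (-1.19 to 0.36) were lowest. The median was 0.37 beside 0.29 over all genes. Per ERCC UMI 11 were past 2-fold higher and none lower, beside 35.2% and 7.16% of all genes.

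**Figure D4:**
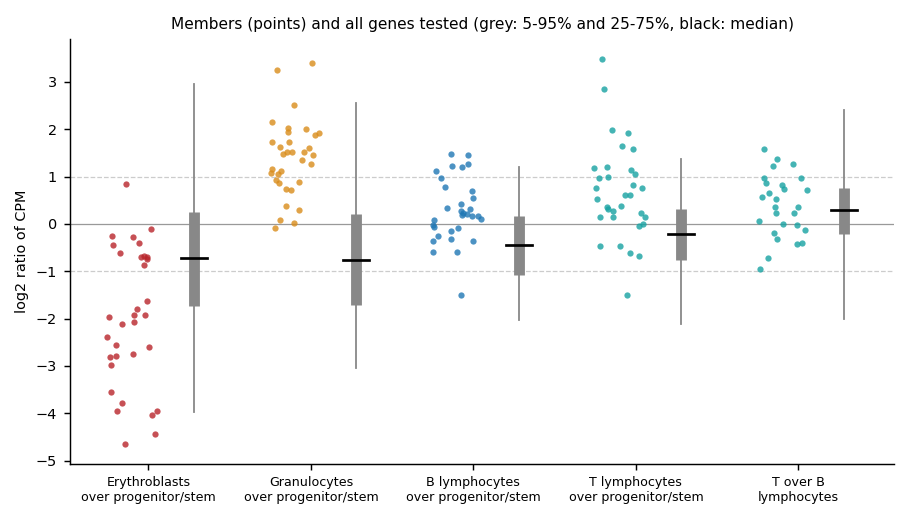
Log2 ratios of CPM in 5 comparisons of sorted populations for the actin cytoskeleton genes that reached 50 UMIs over both populations (points) and for all genes tested (grey bars, 5th to 95th and 25th to 75th percentile; black line, median); dashed lines mark 2-fold. The granulocyte points lie at -0.08 to 3.41 while the median of all genes is -0.76, and the erythroblast points reach down to -4.66. With scran size factors 12 of the 33 erythroblast points lie above 0, beside 59.5% of all genes. Counting per ERCC UMI lowers all B cell ratios by 1.32. On that scale 30 of the 32 B cell points and 95.9% of all genes lie below 0.

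Shares within a pair of related genes do not depend on the total used for scaling. Of the UMIs of Arpc1a and Arpc1b, Arpc1b took 90.1% (87.1% to 92.6%) in the granulocytes, 79.7% (68.3% to 88.4%) in the T cells, 79.6% (75.3% to 83.5%) in the LSK cells, 75.9% (62.4% to 86.5%) in the B cells and 20.0% (10.0% to 33.7%) in the erythroblasts. The erythroblasts thus had mostly Arpc1a, from 40 UMIs against 10. Of the Arpc1b words, 14.2% occur in other genes. Moesin and ezrin gave the same contrast: Msn took 16.5% (11.5% to 22.6%) in the erythroblasts and between 60.6% in the LSK cells and 76.6% (71.3% to 81.4%) in the granulocytes. Coro1a took 50.0% (37.0% to 63.0%) of the UMIs of Coro1a and Coro1b in the erythroblasts and 79.2% to 93.0% elsewhere. Of the Coro1b words, 33.7% lie in the overlapping Ptprcap, so its count is uncertain. Twf2, the twinfilin of the pair that was also highest in the granulocytes, took 14.3% (3.05% to 36.3%) of the twinfilin UMIs in the erythroblasts, 59.1% (48.1% to 69.5%) in the LSK cells, 84.0% (63.9% to 95.5%) in the T cells and 87.4% (79.0% to 93.3%) in the granulocytes. The 8 B cell UMIs of this pair put its Twf2 share anywhere between 8.52% and 75.5%.

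Some pairs told the white cells apart. Tmsb4x took 67.6% (64.7% to 70.4%) of the UMIs of the 2 thymosins in the T cells, 79.0% (74.9% to 82.7%) in the B cells, 79.2% (76.5% to 81.7%) in the LSK cells and 90.1% (82.5% to 95.1%) in the erythroblasts. It reached 95.5% (94.8% to 96.1%) in the granulocytes, or 99.0% without the wells with monocyte markers. Evl and Vasp, which both speed filament growth, were exchanged: Evl took 95.4% (87.1% to 99.0%) of their UMIs in the T cells and 22.2% (10.1% to 39.2%) in the granulocytes, or 10.0% (2.11% to 26.5%) without the wells with monocyte markers. In UMIs these were 62 of Evl and 3 of Vasp in the T cells and 8 and 28 in the granulocytes. The light chains Myl12a and Myl12b were near even, with Myl12a at 45.3% to 53.2% in 4 populations and 70.5% (62.2% to 77.9%) in the erythroblasts, but 27.3% and 39.7% of their words occur in other annotated genes, which include copies of Myl12b. Actb took between 96.9% and 99.4% of the UMIs of the 2 actins everywhere.

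**Figure D5:**
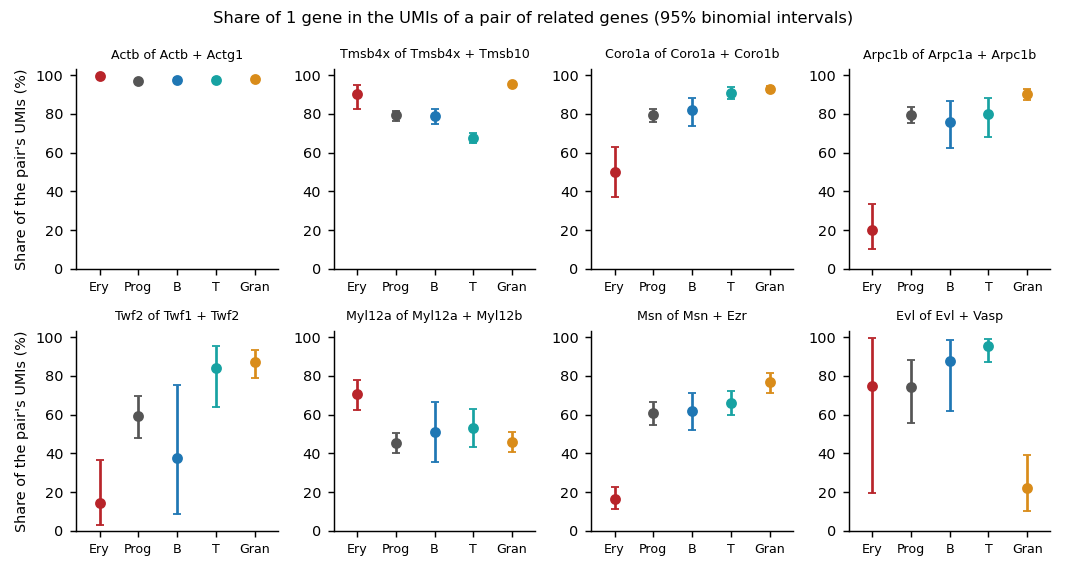
Share of 1 gene, in percent, in the UMIs of a pair of related actin cytoskeleton genes, for 8 pairs and 5 populations (Ery, erythroblasts; Prog, LSK cells; B, T, lymphocytes; Gran, granulocytes), with exact binomial 95% intervals. The erythroblasts stand apart for Arpc1b (20.0%), Msn (16.5%) and Coro1a (50.0%), and the granulocytes lie below the LSK, B and T cells for Evl (22.2%).

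The summed share was set beside other measures of the same well within each population. These are correlations across wells of 1 mouse that share plate, library and depth, so they are descriptions with no test. In the 94 granulocyte wells the log2 share correlated with the log2 UMIs of the well at a Pearson r of -0.51 (Spearman -0.51), at -0.36 (-0.35) with FSC-A, -0.35 (-0.34) with Mac-1 fluorescence, 0.40 (0.33) with CD44, 0.39 (0.39) with Gr1 and 0.34 (0.27) with the share of granulocyte markers. Over the 81 wells left without those with monocyte markers the values were lower in size: -0.41 (-0.41) with UMIs, -0.26 (-0.24) with FSC-A, -0.30 (-0.34) with Mac-1, 0.28 (0.19) with CD44, 0.24 (0.20) with Gr1 and 0.11 (0.065) with the granulocyte markers. In the 95 erythroblast wells the correlation was 0.38 (0.38) with CD44, 0.31 (0.30) with FSC-A and -0.49 (-0.45) with the globin share, and with the globin genes left out of the total it was 0.01 (0.05) with CD44 and 0.07 (0.05) with FSC-A. In the B cells the correlations of 0.45 (0.26) with CD44 and 0.39 (0.21) with Gr1 were 0.31 (0.20) and -0.20 (0.15) without the 1 such well nearest the granulocytes. In the T cells the strongest were -0.40 (-0.45) with Gr1 and -0.32 (-0.27) with CD44. Gr1 fluorescence ran only from -61 to 75 in these T cell wells, against 736 to 49318 in the granulocyte wells. In the LSK cells the strongest was -0.24 (-0.16) with UMIs, or -0.10 (-0.13) without the well nearest the B cells. Actb and Tmsb4x shares correlated across wells at 0.55 (0.47) in the B cells, 0.40 (0.43) without the well nearest the granulocytes, and at 0.28 (0.19) in the T cells, 0.20 (0.21) in the granulocytes (0.085 and 0.097 without the wells with monocyte markers), -0.02 (-0.02) in the erythroblasts and 0.03 (-0.10) in the LSK cells, or -0.15 (-0.14) there without the well nearest the B cells.

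A list of 50 further genes of the actin system, 46 of them in the table, was counted in the same way. In the erythroblasts over the LSK cells, 28 of 36 were past 2-fold lower and 1 higher, beside 40.9% and 14.8% of all genes tested. The exception was Add1, adducin 1, which links spectrin to actin in the red cell membrane, at a log2 ratio of 1.65 (1.37 to 1.93), followed by Tpm1, a tropomyosin, at 0.70 (0.10 to 1.30). The lowest were Sptbn1, a spectrin known from cells other than red cells, at -5.53 (-7.82 to -3.95) and Vim, vimentin, at -4.96 (-6.10 to -4.02). In the granulocytes over the LSK cells, 18 of 39 were past 2-fold higher and 3 lower (all genes, 13.7% and 42.7%), with Actn1, alpha-actinin 1, at 3.90 (3.24 to 4.64) and Cotl1, a coactosin, at 3.28 (2.87 to 3.70) highest and Tpm1 at -1.60 and Sptbn1 at -1.99 lowest. In the B cells over the LSK cells 7 of 36 were higher and 3 lower (all genes, 6.56% and 27.9%), with Tpm4 at 3.13 (2.40 to 3.89) and Marcks at 2.78 (2.29 to 3.29) highest and Elmo1 at -1.81 and Zyx, zyxin, at -3.44 (-5.73 to -1.87, from 3 UMIs) lowest. In the T cells 6 of 36 were higher and 2 lower (all genes, 8.35% and 17.8%), with Actn1 at 3.50 (2.75 to 4.30) and Tpm4 at 2.64 highest and Tagln2 at -1.55 and Myo1f at -2.08 lowest. Between the lymphocytes, beside 18.2% higher and 9.34% lower over all genes, 4 of 23 were higher in the T cells, led by Actn1 at 3.69 (2.07 to 6.01) and Cotl1 at 2.02, and 2 were lower, Arpc5l at -1.92 (-2.93 to -1.00) and Marcks at -2.38 (-3.15 to -1.66).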

How the data were processed

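Single cells of 5 sorted populations were measured by CEL-seq2 on 1 plate (374 wells). Counts, as the authors deposited them, are raw UMI numbers for each gene in each well; their scPipe workflow aligns reads, assigns them to exons, splits them by barcode and collapses them to UMIs. Genome build, annotation and strand setting were not given in the sources used here. In all, the table had 383 columns, of which 9 had no matching sample and stayed out. Symbols and coordinates are those of GENCODE M21 (GRCm38), in which 19755 of 19829 mouse gene IDs had a symbol.

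Sums over the wells of a population were divided by its mouse UMIs (CPM). Totals were 135808 UMIs in the B cells, 200396 in the T cells, 403506 in the granulocytes, 666728 in the erythroblasts and 834812 in the LSK cells, so that genes with few UMIs have wide intervals. With 1 sample a population, no p-value was computed. Intervals are 95% exact Poisson (levels), exact binomial (shares) and exact conditional binomial (ratios). The floor was 3 UMIs and the filter 50 UMIs in the populations compared. The functions were tested on simulated sums. A well counted as nearest another population by the correlation of log2(CPM + 10) over 3906 genes with at least 100 UMIs, its own counts left out.

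The genes, role groups, further genes and markers were chosen with earlier results of these data known. Named are the 12 genes with the highest mean CPM, the pairs, and the 3 highest and 3 lowest ratios per comparison (2 and 2 for further genes); other members are given by role and were picked after their values were seen. Doublets were not called: wells were filled by single-cell sorting. The monocyte list had 5 genes in the table. Alternatives used scran 1.30.0 size factors and TMM factors of edgeR 4.0.16 (R 4.3.3), ERCC counts, other totals, wells and filters. The rest used Python 3.11.15 with numpy 2.4.6, pandas 2.3.3, scipy 1.17.1 and matplotlib 3.10.9. Promoter sequences came from RefSeq (GRCm38.p6).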

Additional observations from a re-analysis of the deposited data

How the results depend on the processing

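Of the alternatives, 5 were chosen after seeing the data: ratios relative to the median gene, the order without the wells nearest another population, and the shares, counts and well correlations without the granulocyte wells with monocyte markers. No paired analysis was possible because each population is 1 sample. The order of the populations in the summed share was the same in each alternative run on shares, while per ERCC UMI the B cells lay below the LSK cells. Scran and TMM factors were not run on the summed share. They move every log2 ratio of erythroblasts over LSK cells by 1.01 and 0.86, which makes that difference much smaller. Leaving Gm42418, globin and mitochondrial genes out of the total gave shares of 2.55% in the B cells, 3.21% in the T cells, 5.53% in the granulocytes, 0.928% in the erythroblasts and 1.53% in the LSK cells. Without Tmsb4x and Actb they were 1.04%, 1.55%, 2.22%, 0.332% and 0.870%. The B cell share was 1.73% without the wells nearest another population, and the granulocyte share 4.72% as a mean over wells and 4.69% without the wells with monocyte markers. Leaving out each plate row gave ranges of 1.80% to 1.85% for B cells, 2.32% to 2.73% for T cells, 4.43% to 4.54% for granulocytes, 0.585% to 0.620% for erythroblasts and 1.27% to 1.28% for LSK cells.

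Compared with CPM, scran size factors moved the log2 ratios of all genes by 1.01 in the erythroblasts and 0.83 in the granulocytes (TMM 0.86 and 0.77) over the LSK cells, and ERCC counts moved them by -0.96 in the granulocytes, -1.32 in the B and -0.89 in the T cells. Genes past 2-fold changed as follows. For erythroblasts over LSK cells, the count of higher genes was 1 with scran or TMM factors, with the reduced total and relative to the median gene. For granulocytes it was 6 higher and 1 lower per ERCC UMI, and 1 lower without the wells with monocyte markers. For B cells it was 0 higher and 20 lower per ERCC UMI, 10 higher with no filter and 0 lower with a filter of 100 UMIs. For T cells it was 4 higher and 5 lower per ERCC UMI, 2 lower with a filter of 20 UMIs or no filter and 0 lower with 100 UMIs. For T over B cells it was 11 higher per ERCC UMI, 7 higher with a filter of 20 UMIs or no filter and 2 higher relative to the median gene. The count of lower genes there was 1 with scran or TMM factors, the reduced total, wells of at least 1000 UMIs and 500 genes, without the wells nearest another population, with no filter or relative to the median gene. The Tmsb4x share of the thymosins in the granulocytes was 96.2% without the wells nearest another population. Of the other values recomputed, 85 counts past 2-fold and 8 counts of the order stayed within 1.5 times those given, and 79 pair shares and 25 summed shares within their intervals. Depth limits Was, Wasf2, Wipf1, Vasp, Twf1 and Wdr1, each with under 100 UMIs in all.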
